A study of Danio rerio with 3 samples.

Results

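The cells described here carried UMIs of the Hu genes elavl3 and elavl4 and none of tfap2a, tfap2b or tfap2c, and were chosen from 3 single-cell RNA-seq libraries labelled as larval zebrafish retina. The working name for them, neurons without AP-2, holds only in part. Of the members, 60 lay in a Muller glia-like cluster. The AP-2 gene tfap2e was not used by the rule. It had 82 UMIs in Lws2-ablation members, 1 in control members and 0 in the library labelled Sws2-ablation (called Sws2-labelled below). The name says nothing of the tissue: 346 Lws2-ablation, 2 Sws2-labelled and 75 control members lay in clusters nearly without the eye gene six6b. A member had at least 15 UMIs (unique molecular identifiers, each counting 1 captured transcript) of elavl3 and elavl4 together per 10000 UMIs, at least 5 such UMIs, at least 1 UMI of elavl4, and 0 UMIs of tfap2a, tfap2b, tfap2c, vsx1, cabp5a and cabp5b. The last 6 genes mark most amacrine cells (AP-2) and bipolar cells (vsx1, cabp5). In all, 907 of 26471 kept cells were members: 677 in the Lws2-ablation library, 59 in the library labelled Sws2-ablation and 171 in the no ablation control.

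The study asked how Muller glia, the radial glia of the retina, respond when 1 type of cone is killed. The Lws2-ablation larvae carried lws2:nfsb-mCherry, which puts nitroreductase into red cones, and the Sws2-ablation larvae carried sws2:nfsb-mCherry, which puts it into blue cones. The no ablation control had no nitroreductase. The labels give all 3 groups the transgenes her4.1:dRFP and gfap:GFP as well, which the EGFP counts do not bear out for Sws2-ablation (values below). The series text describes 10 mM metronidazole for 48 h from 6 days post-fertilization (dpf) and a rinse at 8 dpf without setting the control apart, and the labels give 9 dpf for all 3 libraries. Cells were sorted by fluorescence before capture, each condition is 1 library, and how many larvae were pooled into each was not given in the sources used here. The gfap and her4.1 reporters drive fluorescence in Muller glia and their progeny, so the neurons came through a gate meant for glia.

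Elavl3 and elavl4 encode RNA-binding proteins that nearly every young neuron makes soon after its last division, so they tell neurons from glia without telling neurons apart. In the fish retina they are known from ganglion, amacrine and horizontal cells. Ganglion cells, the output neurons whose axons form the optic nerve, are told by rbpms2a, rbpms2b, isl2b and the pou4f (Brn3) factors, and horizontal cells by onecut1, lhx1a, prox1a and connexins. Amacrine cells use GABA or glycine. Six6b and the pax6 genes are regulators of eye development.

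Kept cells had medians of 5905 UMIs in the Lws2-ablation library, 5034 in the library labelled Sws2-ablation and 4390.5 in the control, from totals of 74215043 UMIs in Lws2-ablation, 51943376 in Sws2-labelled and 41397211 in control cells. Members had medians of 3983 UMIs in Lws2-ablation, 7073 UMIs in Sws2-labelled and 3429 UMIs in control, so the members of the library labelled Sws2-ablation were the deepest and those of the control the shallowest. The library labelled Sws2-ablation went against its label, which includes gfap:GFP: EGFP was at 2.21 CPM (UMIs scaled to a total of 1000000) in its kept cells, against 736 CPM in Lws2-ablation and 1089.7 CPM in control cells, while RFP was at 2296 CPM in Lws2-ablation, 3308 CPM in Sws2-labelled and 2496 CPM in control kept cells. Between 17 and 29 barcodes of kept cells were shared by each pair of libraries, and none was a member in both. Shares carry exact binomial and levels exact Poisson intervals at 95%, which cover the error of counting alone. No difference between conditions could be tested, since each is 1 library.

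The members were 6.49% of kept cells in Lws2-ablation (95% interval 6.03 to 6.98), 0.751% in the library labelled Sws2-ablation (0.573 to 0.968) and 2.09% in the control (1.79 to 2.42). The intervals do not overlap, but the sort and its gate lie between the retina and these shares, and its part in them was not tested. Before the AP-2 and bipolar genes were asked for, 828 Lws2-ablation, 71 Sws2-labelled and 226 control cells passed the elavl rule. Of these, 77 Lws2-ablation, 6 Sws2-labelled and 45 control cells carried AP-2 UMIs and no bipolar gene, and are called AP-2 neurons. A further 74 Lws2-ablation, 6 Sws2-labelled and 10 control cells carried a bipolar gene. The median of elavl3 and elavl4 together was 40.4 per 10000 UMIs in Lws2-ablation, 35.04 in Sws2-labelled and 43.3 in control members. Just inside the threshold, at 15 to 20 per 10000, lay 53 Lws2-ablation, 7 Sws2-labelled and 9 control members. Just outside it, at 10 to 15, lay 51 Lws2-ablation, 6 Sws2-labelled and 14 control cells.

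Among the genes that mark the members, elavl3 was at 2200.4 CPM in Lws2-ablation members, 2383 CPM in the Sws2-labelled members and 2327 CPM in control members, and elavl4 at 1905 CPM in Lws2-ablation, 1052 CPM in Sws2-labelled and 2182 CPM in control members. The rule used both genes, so these levels are a description. Gap43, a growth cone protein of extending axons, was not part of the rule and was at 883 CPM (95% interval 852 to 915) in Lws2-ablation, 1414 CPM (95% interval 1303 to 1532) in the library labelled Sws2-ablation and 254 CPM (95% interval 218 to 293) in control members. The gene stmn2a, for a tubulin-binding protein of growing neurites, was at 569 CPM in Lws2-ablation, 486 CPM in Sws2-labelled and 408 CPM in control members. After each cell was thinned to 1000 UMIs, gap43 was found in 34.4% of Lws2-ablation, 52.5% of Sws2-labelled and 19.0% of control members, against 0.337% of Lws2-ablation, 0.197% of Sws2-labelled and 0.0544% of control glula cells, the glia without elavl3 and elavl4 that serve as the background for free RNA. Gap43 thus set the members of all 3 libraries apart from glia, and was lowest in the control. At the same depth it was found in 25% of Lws2-ablation, 16.7% of the 6 Sws2-labelled and 9.09% of control AP-2 neurons. It was therefore not particular to the members.

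The 907 members were clustered together into 14 clusters, numbered by size. A cluster was named only where at least 3 markers of 1 cell type list stood out in it. Clusters 4 and 7 were ganglion cell-like, cluster 5 neurogenic precursor-like and cluster 8 Muller glia-like; the other 10 stayed unnamed and are called by their leading genes. None was horizontal cell-like. The ganglion cell-like clusters held 112 of 677 Lws2-ablation members (16.5%, 95% interval 13.8 to 19.6), 38 of 59 members of the library labelled Sws2-ablation (64.4%, 50.9 to 76.4) and 22 of 171 control members (12.9%, 8.24 to 18.8). The precursor-like cluster held 9.16% of Lws2-ablation, 27.1% of Sws2-labelled and 0.585% of control members, and the unnamed clusters held 69.1% of Lws2-ablation, 3.39% of Sws2-labelled and 73.7% of control members. So most members of the library labelled Sws2-ablation lay in the ganglion cell-like and precursor-like clusters, and most members of the others in clusters without a retinal name. The share for the library labelled Sws2-ablation depended on the clustering: with genes scaled within each library, the ganglion cell-like and precursor-like clusters together held 23.7% of its members and 30.9% of Lws2-ablation members, against 91.5% of its members and 25.7% of Lws2-ablation members without that scaling. Cluster names rest on these rebuilt clusters, and a cluster held mostly by 1 library may be that library rather than a cell type.

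**Figure D1:**
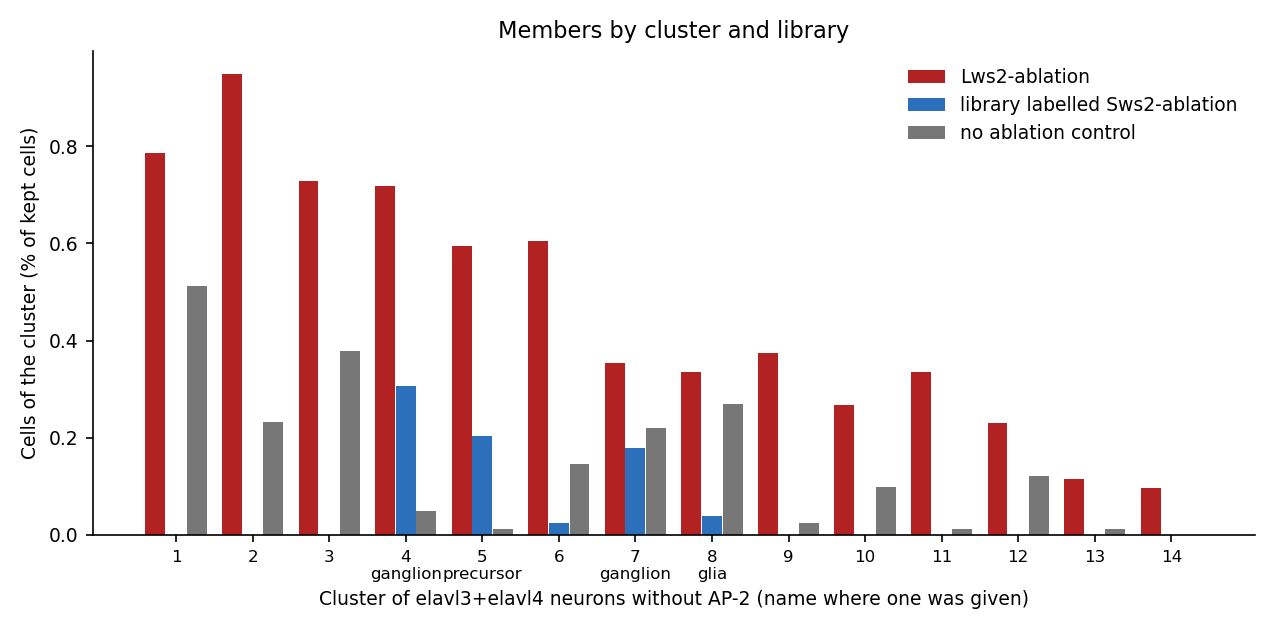
Members in each of the 14 clusters (horizontal axis, with the given name where there was one) as a percent of all kept cells of the library (vertical axis), with a bar each for Lws2-ablation, the library labelled Sws2-ablation and the no ablation control. The Sws2-labelled members sit almost wholly in clusters 4, 5 and 7 (24, 16 and 14 of 59 cells), while cluster 1 holds 82 Lws2-ablation and 42 control members and none of theirs.

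Cluster 7 (37 Lws2-ablation, 14 Sws2-labelled and 18 control cells) carried 11 of 21 ganglion cell markers. They included rbpms2a at 5070.4 CPM, rbpms2b at 3029.6 CPM, isl2b at 826 CPM, and pou4f1, a Brn3 factor, at 1040.3 CPM, found in 79.7% of its cells. Cluster 7 also carried 3 of 15 amacrine markers (pax10, barhl2 and meis2a) and 2 of 12 bipolar markers (gnao1b and gng13b). Calb2a, a calcium-binding protein, led the cluster at 1326 CPM, and the synaptic genes snap25a and syt1a were at 1116 and 1366 CPM. Cluster 4 (75 Lws2-ablation, 24 Sws2-labelled and 4 control cells) carried 7 of the 21 markers, isl2b at 692 CPM and the neurofilament gene inab at 505 CPM among them. It also carried 2 of 12 bipolar markers (gnao1b and gng13b). Its leading genes also held nes and vim, intermediate filaments of young neural cells, at 218 and 1385 CPM. Since the cells were clustered on these genes, their levels are a description.

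Cluster 5 (62 Lws2-ablation, 16 Sws2-labelled cells and 1 control cell) held 5 of 13 precursor markers, among them atoh7, the proneural factor that ganglion cells need, at 796 CPM in 74.7% of its cells, and insm1a and sox11b. The chemokine receptor gene cxcr4b led it at 1252 CPM. The ganglion cell gene rbpms2b was already at 2341 CPM in this cluster, and rbpms2a at 503 CPM. Atoh7 was at 671 CPM in cluster 5, 17.3 CPM in cluster 4 and 6.90 CPM in cluster 7 in Lws2-ablation. In the library labelled Sws2-ablation it was at 1267 CPM in cluster 5, 142 CPM in cluster 4 and 0 CPM in cluster 7. The gene snap25a, of the vesicle fusion machinery, ran the other way, at 90.6 CPM in cluster 5, 334 CPM in cluster 4 and 1036 CPM in cluster 7 in Lws2-ablation. In the library labelled Sws2-ablation it was at 33.7 CPM in cluster 5, 447 CPM in cluster 4 and 1200 CPM in cluster 7. The level of gap43 was highest in cluster 4, with 1212 CPM in cluster 5, 2101 CPM in cluster 4 and 255 CPM in cluster 7 in Lws2-ablation. In the library labelled Sws2-ablation it was at 1476 CPM in cluster 5, 1925 CPM in cluster 4 and 206 CPM in cluster 7. The order of the clusters was the same for each of the 3 genes in both ablation libraries. Cells of all libraries were clustered together on their genes, so this order is a description and no independent agreement between libraries. With 1 control cell in cluster 5 and 4 in cluster 4, the control could be read only in cluster 7. In that cluster elavl4 was at 2140.1 CPM in Lws2-ablation, 2494 CPM in the Sws2-labelled cells and 3354 CPM in control cells, and tuba1a, an alpha-tubulin of growing axons, at 359 CPM in Lws2-ablation, 356 CPM in Sws2-labelled and 55.9 CPM in control.

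**Figure D2:**
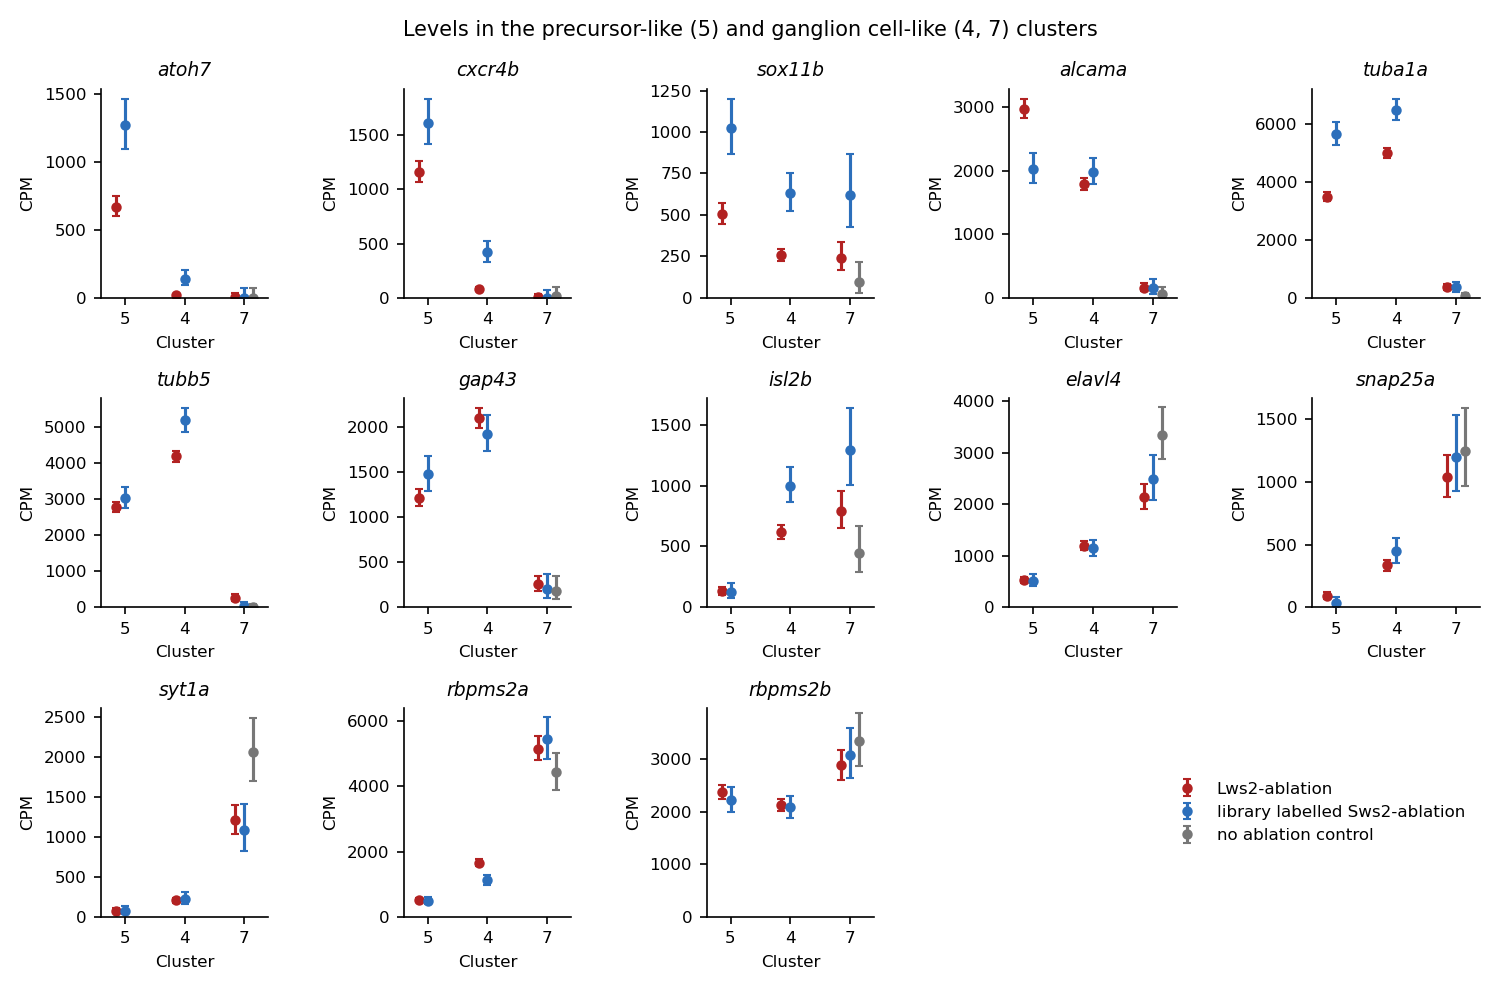
Level (CPM, vertical axis) of single genes in the precursor-like cluster 5 and the ganglion cell-like clusters 4 and 7 (horizontal axis) in each library, summed over the cells, with exact Poisson 95% intervals. Atoh7 stands highest in cluster 5 (671 CPM in Lws2-ablation), gap43 in cluster 4 (2101 CPM) and snap25a in cluster 7 (1036 CPM).

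Over all members, rbpms2a was at 779 CPM (95% interval 750.3 to 809.5) in Lws2-ablation, 1381 CPM (95% interval 1271 to 1498) in the library labelled Sws2-ablation and 645 CPM (95% interval 588 to 706) in the control. Rbpms2b was at 1083 CPM in Lws2-ablation members, 2158 CPM in the Sws2-labelled members and 653 CPM in control members. Isl2b was at 189 CPM in Lws2-ablation, 658 CPM in Sws2-labelled and 99.2 CPM in control members, pou4f1 at 152 CPM in Lws2-ablation, 246 CPM in Sws2-labelled and 165 CPM in control members and pou4f2 at 131 CPM in Lws2-ablation, 239 CPM in Sws2-labelled and 49.6 CPM in control members. Each of these 5 genes was highest in the library labelled Sws2-ablation, with rbpms2b 3.30-fold and isl2b 6.58-fold over the control (both with 1 CPM added). An rbpms2a or rbpms2b UMI was found in 42.2% of Lws2-ablation, 94.9% of Sws2-labelled and 38.0% of control members. Rbpms2b UMIs were frequent in glula cells as well. At 1000 UMIs per cell, rbpms2b was found in 29.2% of Lws2-ablation, 81.4% of Sws2-labelled and 21.4% of control members (36.2% in Lws2-ablation, 93.2% in Sws2-labelled and 30.4% in control before thinning), against 27.9% of Lws2-ablation, 26.02% of Sws2-labelled and 39.6% of control glula cells, whose median depths were 6651 UMIs in Lws2-ablation, 5684 UMIs in Sws2-labelled and 4482 UMIs in control. The share of members with rbpms2b thus stood well above the glial share in the library labelled Sws2-ablation, close to it in Lws2-ablation and below it in the control. Before thinning, rbpms2b was found in 70.0% of Lws2-ablation, 67.5% of Sws2-labelled and 77.2% of control glula cells, so these cells give no floor of free RNA for it. Its UMIs were unevenly spread over the members, with 3717 of 3743 in Lws2-ablation and 468 of 474 in the control lying in the 7 clusters rich in six6b that are set out below.

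The thinning left out members under 1000 UMIs, of which there were 15 in Lws2-ablation, 0 in Sws2-labelled and 3 in the control. On the same footing isl2b was found in 8.61% of Lws2-ablation, 27.1% of Sws2-labelled and 2.98% of control members and in 0.371% of Lws2-ablation, 0.236% of Sws2-labelled and 0.163% of control glula cells. Pou4f2 was found in 6.95% of Lws2-ablation, 27.1% of Sws2-labelled and 2.98% of control members. These 2 factors were nearly absent from glia and again most frequent in the library labelled Sws2-ablation.

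**Figure D3:**
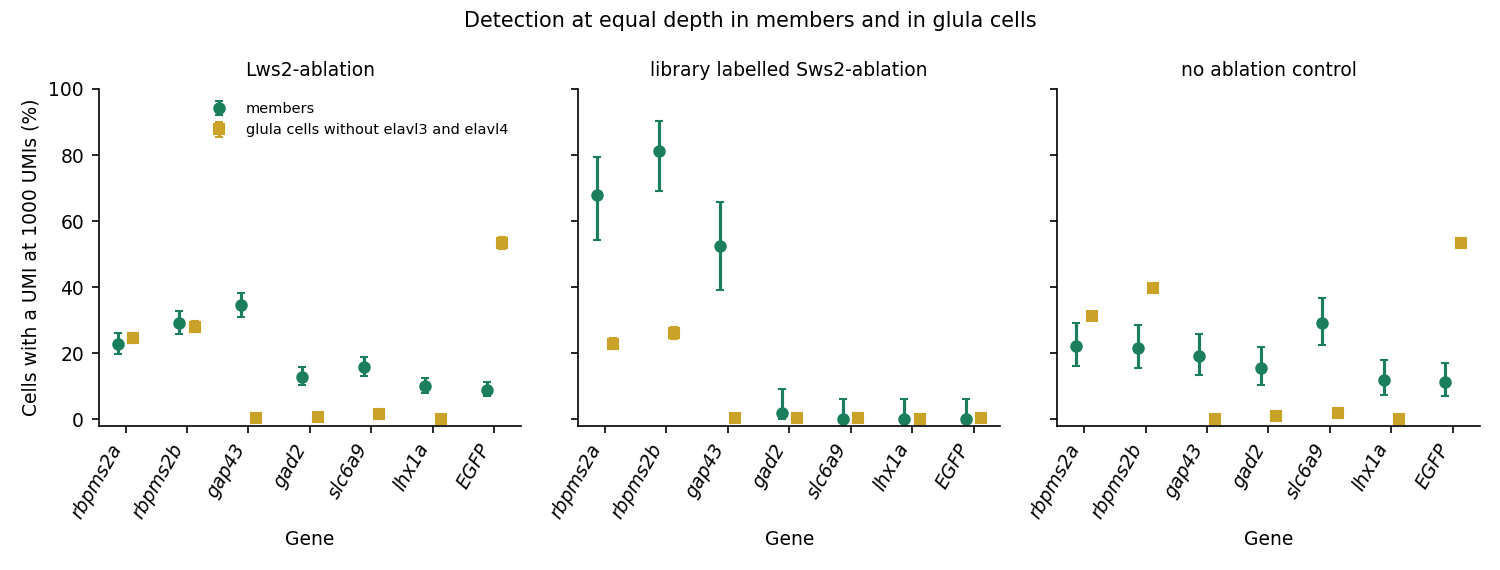
Share of cells (percent) with at least 1 UMI of each gene after every cell was thinned to 1000 UMIs, for members and for glula cells of each library, with exact binomial 95% intervals. Rbpms2b reaches 81.4% of Sws2-labelled members but 29.2% of Lws2-ablation and 21.4% of control members, close to or below the glula cells. Gap43 reaches 34.4% of Lws2-ablation members and 0.337% of their library's glula cells.

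Horizontal cells were looked for by a list of 10 genes, 9 of them in the files. The list summed to 166 CPM in Lws2-ablation, 104 CPM in the Sws2-labelled and 234 CPM in control members, and 3 of the 9 genes were at 0 in Lws2-ablation, 5 in Sws2-labelled and 4 in control members. A UMI of the list was found in 34.0% of Lws2-ablation, 33.9% of Sws2-labelled and 40.4% of control members, against 51.3% of Lws2-ablation, 42.3% of Sws2-labelled and 58.6% of control glula cells. The glial share came from prox1a, found in 50.4% of Lws2-ablation, 42.0% of Sws2-labelled and 58.4% of control glula cells, so the summed list does not tell members from glia. The gene lhx1a, for a LIM factor of horizontal cells and of many brain neurons, was at 94.4 CPM in Lws2-ablation, 0 CPM in Sws2-labelled and 145 CPM in control members. Most of its UMIs, 304 of 326 in Lws2-ablation and 102 of 105 in the control, lay in clusters nearly without six6b, described below. It was found in 17.7% of Lws2-ablation, 0% of Sws2-labelled and 22.8% of control members, against 0.0659% of Lws2-ablation, 0% of Sws2-labelled and 0.0530% of control glula cells. The gene onecut1 was at 18.5 CPM in Lws2-ablation, 59.2 CPM in Sws2-labelled and 22.04 CPM in control members and prox1a, also a factor of amacrine and other neurons, at 38.5 CPM in Lws2-ablation, 23.7 CPM in Sws2-labelled and 62 CPM in control members. A UMI of onecut1 was found in 4.28% of Lws2-ablation, 15.3% of Sws2-labelled and 5.26% of control members, against 0.758% of Lws2-ablation, 0.270% of Sws2-labelled and 0.124% of control glula cells. Thinned to 1000 UMIs, these shares were 0.906% of Lws2-ablation, 3.39% of Sws2-labelled and 2.38% of control members. Of the 19 Sws2-labelled members with onecut1, onecut2, prox1a or lhx1a, 18 also had an rbpms2a or rbpms2b UMI, as had 38 of the 40 without them. Members thus stood above glia in lhx1a, except in the library labelled Sws2-ablation, and in onecut1, and below them in prox1a. No cluster carried more than 1 of the 9 genes as a marker.

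Cluster 1, with 82 Lws2-ablation and 42 control cells, was led by si:ch211-195b11.3, kidins220a, slc7a2, tbx3a and anos1a, and carried slc6a9. Slc6a9 encodes the glycine transporter of glycinergic amacrine cells, and was at 6935 CPM in this cluster. Kidins220a, a scaffold of neurotrophin receptors, reached 12800.5 CPM, the T-box gene tbx3a 2771 CPM and the homeobox gene gbx2 1063 CPM. Six6b was at 676 CPM and pax6a and pax6b at 1334 and 1760.2 CPM. Cluster 1 held 3 of 15 amacrine markers (slc32a1, slc6a9 and meis2a) and stayed unnamed because pax10, ptf1a and barhl2, 1 of which the naming rule asked for, were not among them. Over all members, slc6a9 was at 927 CPM (95% interval 895 to 959) in Lws2-ablation and 2025 CPM (95% interval 1923 to 2132) in the control, and at 0 of 422179 UMIs in the library labelled Sws2-ablation; against a floor of 3 UMIs over those members it was at least 285-fold lower there than in the control. At 1000 UMIs it was found in 15.7% of Lws2-ablation, 0% of Sws2-labelled and 29.2% of control members and in 1.52% of Lws2-ablation, 0.354% of Sws2-labelled and 1.76% of control glula cells. Of the members with slc6a9, 89.7% in Lws2-ablation and 90% in the control also had pax6a, pax6b or six6b. Most members with slc6a9 thus had eye field genes as well, and they were found in 2 of the 3 libraries. Their lack of tfap2a, tfap2b and tfap2c UMIs was set by the rule. AP-2 neurons also carried slc6a9, at 1000 UMIs in 17.1% of Lws2-ablation, 0% of Sws2-labelled and 11.4% of control cells.

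A smaller group with slc6a9 was cluster 13 (12 Lws2-ablation cells and 1 control cell), with nhlh2 at 4371 CPM, calb2b at 3278 CPM, prdm13, a factor of mouse amacrine cells, at 665 CPM, and EGFP at 10761 CPM. Cluster 10 (28 Lws2-ablation, 0 Sws2-labelled and 8 control cells) carried 8 of 21 ganglion cell markers, rbpms2a at 1783 CPM and slc17a6b, a vesicular glutamate transporter, at 939 CPM. It stayed unnamed because its 10 leading genes (npb, cygb1, irx4a and htr7c among them) held a bipolar marker, grm6b, and no ganglion marker. Its markers also included barhl2, at 1049.9 CPM, and onecut1. With cluster 10 counted among the ganglion cell-like cells, the 22 control cells of that class would be joined by 8 more and the 112 Lws2-ablation cells by 28 more.

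The remaining unnamed clusters were nearly without six6b. Six6b was under 50 CPM in clusters 2, 3, 6, 9, 11, 12 and 14, and over 100 CPM in the other 7. This grouping was made after the values were seen. The 7 six6b-low clusters held 346 Lws2-ablation members (51.1%, 95% interval 47.3 to 54.9), 2 of the library labelled Sws2-ablation (3.39%) and 75 control members (43.9%, 36.3 to 51.6). In them six6b had 15 UMIs in Lws2-ablation, 0 in Sws2-labelled and 2 in the control. In the other 7 clusters it had 602 UMIs in Lws2-ablation, 95 in Sws2-labelled and 238 in the control. Pax6a was at 137 CPM in Lws2-ablation and 64.1 CPM in control six6b-low members. In members of the other clusters it was at 783 CPM in Lws2-ablation and 851 CPM in the control. The 2 Sws2-labelled six6b-low cells had 8 pax6a and 7 pax6b UMIs. The six6b-low cells were shallower, with medians of 3319 UMIs in Lws2-ablation and 2945 in the control, against 6094 in Lws2-ablation and 4698.5 in the control for the other clusters. Elavl4 was at 2866 CPM in Lws2-ablation and 2665 CPM in control six6b-low members. The share depended on the threshold for a member: at 25 UMIs per 10000 it was 34.8% in Lws2-ablation and 29.7% in the control.

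The six6b-low clusters differed in their leading genes, and the genes named for them here beyond the first 5 were chosen after their values were seen. Cluster 2 was led by tcf7l2 (1103 CPM), a Wnt pathway factor of the thalamus, lhx1a (498 CPM) and uncx (262 CPM). Cluster 3 carried otpa, a factor of hypothalamic neuroendocrine neurons, at 1211 CPM, with the GABA transporter gene slc6a1b and the peptide genes adcyap1b and sst1.1 at 941, 1706 and 1475 CPM. Otpa was found in 25.2% of its 107 cells. The cluster also carried 4 of 15 amacrine markers (gad1b, gad2, slc6a1a and slc6a1b), without pax10, ptf1a or barhl2. Sst1.1 came from few cells, since only 6 Lws2-ablation and 3 control cells of all the six6b-low clusters had it. Cluster 6 was GABAergic, with gad2 and gad1b, the GABA synthesis enzymes, at 1604 and 665 CPM, and gata3 and tal1, selectors of midbrain and hindbrain GABA neurons, at 460.5 and 453 CPM.

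Cluster 9 was led by rtn4rl2b, a Nogo receptor relative, at 777 CPM, and by neurod6a and the activity gene egr3 at 811 and 604 CPM. It also carried 3 of 21 ganglion cell markers (tbr1b, eomesa and slc17a6a), with neither rbpms2 gene among them. Cluster 11 carried emx3, fezf2 and tbr1a, forebrain factors, at 1183, 424 and 274 CPM, and tfap2e, an AP-2 gene that the rule did not exclude, at 679.9 CPM. It also carried 4 of 21 ganglion cell markers (tbr1b, eomesa, slc17a6a and slc17a6b), again with neither rbpms2 gene among them. Cluster 12 carried hoxb3a and hoxd3a, of the hindbrain, at 869 and 265 CPM. Its leading genes also held mab21l2, at 1461 CPM in 73.5% of its cells, and pax2a, at 529 CPM in 32.4%. Cluster 14, of 10 Lws2-ablation cells, carried en1b, en2b and zic2a, of the midbrain-hindbrain boundary and dorsal brain, at 1147, 1311 and 2171 CPM, with the peptide gene uts1 at 1557 CPM.

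A list of 14 genes of brain and sensory ganglion neurons not known as retinal genes was summed in each library. It had 854 UMIs in Lws2-ablation members (247 CPM), 0 in the Sws2-labelled and 260 in control members (358 CPM), with all 14 genes at 0 in the library labelled Sws2-ablation, which allows a summed level of up to 7.11 CPM (3 UMIs). The list was at 5.08 CPM in Lws2-ablation, 1.32 CPM in Sws2-labelled and 4.597 CPM in control glula cells. AP-2 neurons carried it as well, at 226 CPM in Lws2-ablation (19.5% of cells), 0 CPM in Sws2-labelled and 262 CPM in control (28.9% of cells), against 22.7% of Lws2-ablation, 0% of Sws2-labelled and 26.9% of control members with a UMI of it, so the list is not particular to the members. As cluster markers its genes stood out in 3 of the 7 six6b-low clusters: gata3 and tal1 in cluster 6, hoxb3a in cluster 12, and en1b, en2a and en2b in cluster 14. A UMI of the list was found in 38.7% of the six6b-low members of Lws2-ablation and 56% of those of the control. The labels give retina as the only tissue, and these brain list markers of clusters 6, 12 and 14 go against it. They were 2 of 14 list genes in cluster 6, 1 in cluster 12 and 3 in cluster 14. Cluster 6 also carried 5 of 15 amacrine markers (gad1b, gad2, slc32a1, slc6a1a and slc6a1b), without pax10, ptf1a or barhl2. Cluster 14 also carried 3 of 21 ganglion cell markers (eomesa, sncgb and slc17a6b). EGFP was at 40.1 CPM in Lws2-ablation and 22.9 CPM in control six6b-low members, against 506 CPM in Lws2-ablation and 213 CPM in control members of the other clusters. The other clusters include the Muller glia-like cluster 8 and cluster 13, where EGFP was at 10761 CPM and found in 61.5% of 13 cells. No EGFP value without these 2 clusters is given. Glula cells had 1238 CPM of EGFP in Lws2-ablation and 1338 CPM in the control. RFP was at 131 CPM in Lws2-ablation and 77.8 CPM in control six6b-low members, against 374 CPM in Lws2-ablation and 648 CPM in control members of the other clusters. Those other clusters include cluster 8, whose RFP level, given below, was above all of these, and 71.7% of whose cells had high doublet scores. The RFP values thus do not compare neurons alone, and none without cluster 8 is given. Where these neurons came from was not tested.

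The GABA genes gad2, gad1b and slc6a1b were each lowest in the library labelled Sws2-ablation. Gad2 was at 176 CPM in Lws2-ablation members, 26.1 CPM in the Sws2-labelled members and 256 CPM in control members, gad1b at 68.3 CPM in Lws2-ablation, 35.5 CPM in Sws2-labelled and 165 CPM in control members and slc6a1b at 269 CPM in Lws2-ablation, 49.7 CPM in Sws2-labelled and 466 CPM in control members. Of the gad2 UMIs, 530 of 609 in Lws2-ablation and 171 of 186 in control members lay in the six6b-low clusters. Of the members with gad1b or gad2, 52.3% in Lws2-ablation and 54% in the control also had a UMI of the brain list, and 0 of 5 in the library labelled Sws2-ablation. The gene slc32a1, for the vesicular transporter for GABA and glycine, was divided, with 309 of its 622 UMIs in Lws2-ablation and 79 of its 204 UMIs in control members in the six6b-low clusters.

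**Figure D4:**
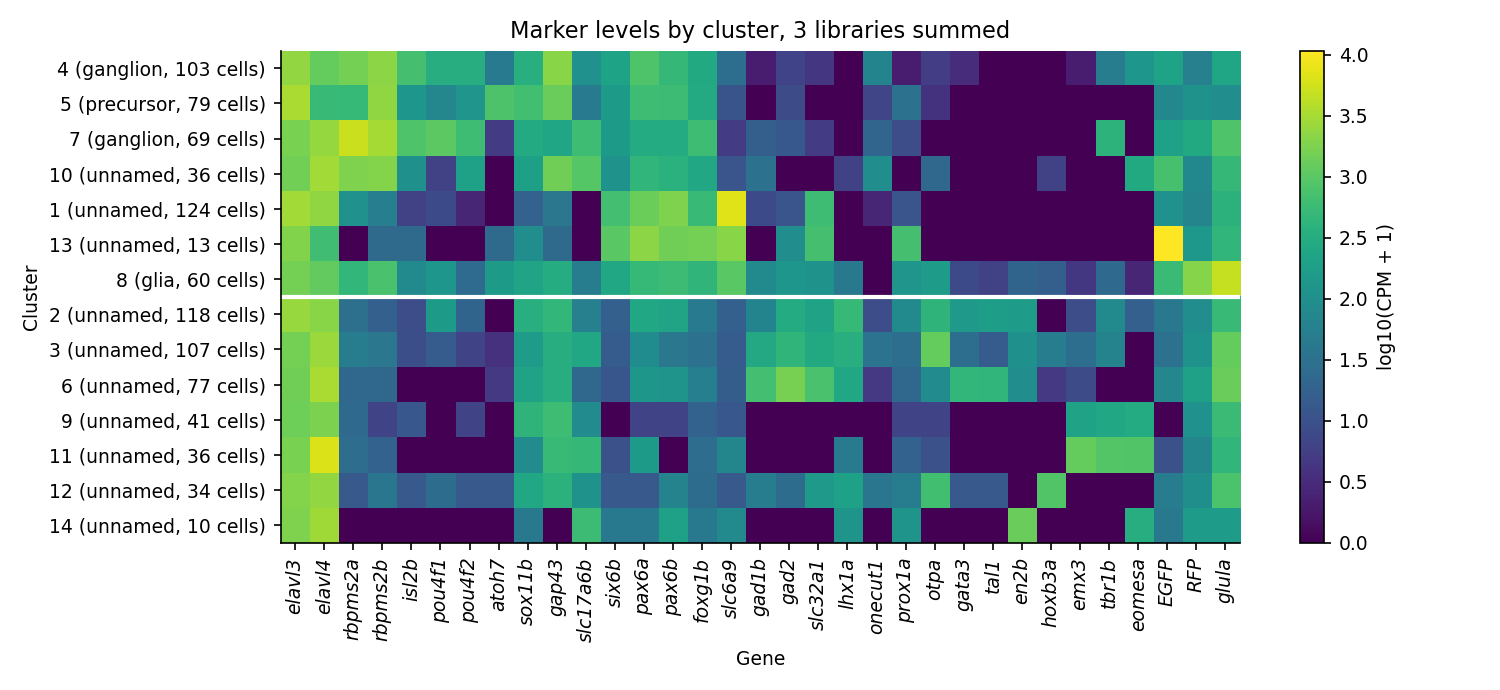
Level (log10 of CPM with 1 added, colour) of marker genes (columns) in the 14 clusters of members (rows), with UMIs summed over the 3 libraries and a white line above the clusters with little six6b. The rbpms2 genes and isl2b stand out in clusters 4, 5, 7 and 10, slc6a9 in clusters 1 and 13, and gad2 in clusters 3 and 6, while six6b is low in clusters 2, 3, 6, 9, 11, 12 and 14.

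Cluster 8 held 60 members (35 Lws2-ablation, 3 Sws2-labelled and 22 control cells) that carried all 8 glial markers beside elavl3 and elavl4. The glutamine synthetase gene of Muller glia, glula, was at 4773 CPM, apoeb at 5640.5 CPM, notch3 at 17625 CPM and RFP at 2007 CPM. The cluster's median depth was 9224.5 UMIs, the highest of the clusters, and 71.7% of its cells were among those with the highest doublet scores, against 0 of 79 in cluster 5 and 0 of 69 in cluster 7. It made up 5.17% of Lws2-ablation, 5.08% of the Sws2-labelled and 12.9% of control members. The glial list summed to 3496 CPM in Lws2-ablation, 2447 CPM in Sws2-labelled and 6889 CPM in control members, so glial genes moved with the library. Values without cluster 8 were computed for the member share, gene counts, the ganglion cell list, the GABA and glycine list and single genes. None was computed for the axon growth, synaptic vesicle or Muller glia lists. Of 7 microglial genes there were 6 UMIs in Lws2-ablation, 0 in Sws2-labelled and 1 in control members.

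Between libraries, members of Lws2-ablation were set against those of the control gene by gene, over genes with at least 50 CPM and 20 UMIs in the higher library and with 1 CPM added. Of 3132 genes, 133 (4.25%) were at least 2-fold higher and 327 (10.4%) at least 2-fold lower, around a median log2 ratio of -0.14. Scaling by TMM factors, which moved all log2 ratios up by 0.22, gave 275 higher and 185 lower. The axon growth and cytoskeleton list had 8 of 22 tested genes higher and 2 lower (median log2 ratio 0.78). Its tuba1a was at 2277 CPM in Lws2-ablation, 5052 CPM in Sws2-labelled and 631 CPM in control members, log2 ratio 1.85, and gap43's log2 ratio was 1.80. The ganglion cell list had 1 of 11 tested genes higher and 0 lower (median log2 ratio 0.47), the GABA and glycine list 0 of 6 tested genes higher and 2 lower (median log2 ratio -0.85) and the Muller glia list 0 of 7 tested genes higher and 5 lower (median log2 ratio -1.40). The neuronal transcription factor list had 5 of 49 tested genes higher and 7 lower (median log2 ratio 0.08). Axon growth genes thus stood above, and inhibitory transmitter and glial genes below, the median of all genes in Lws2-ablation members. These medians include the Muller glia-like cluster 8, which was 5.17% of Lws2-ablation and 12.9% of control members. For axon growth and glial genes no median without cluster 8 was computed. The members of the 2 libraries were also spread differently over the other clusters. Cluster 4 held 11.1% of Lws2-ablation and 2.34% of control members, and cluster 5 held 9.16% and 0.585%. Cluster 1, rich in slc6a9, held 12.1% of Lws2-ablation and 24.6% of control members. The part of this mix of clusters in the medians was not tested.

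The 10 highest genes of that comparison were nppal, emx3, FO704772.2, opn1lw2, abracl, txn, pyya, rtn4rl2a, phlda2 and abhd6a. Nppal, a natriuretic peptide-like gene, had 180 UMIs in Lws2-ablation members and 0 in control members, at least 12.6-fold higher. Emx3, the forebrain factor of cluster 11, had 187 UMIs in Lws2-ablation and 1 in control members (log2 ratio 4.54), and the peptide YY gene pyya had 1170 UMIs in Lws2-ablation and 26 in control members (log2 ratio 3.21). Opn1lw2, the red cone opsin whose promoter drives nitroreductase in the ablated line, had 182 UMIs in Lws2-ablation and 2 in control members, and txn, a thioredoxin, had 225 UMIs in Lws2-ablation and 4 in control members. The photoreceptor list, which does not hold opn1lw2, was at 140 CPM in Lws2-ablation and 67.5 CPM in control members. In glula cells it was higher, at 628 CPM in Lws2-ablation and 496 CPM in the control. Whether the opn1lw2 UMIs were free RNA was not tested. At the lower end stood the keratin gene krt18b (log2 ratio -5.44), gyg1b, a starter protein of glycogen (-4.17), and cx43, her4.3 and cyp26a1 (-2.66, -2.71 and -2.58). Cyp26a1 was a leading gene of the Muller glia-like cluster 8, which held 5.17% of Lws2-ablation and 12.9% of control members. The gene si:ch211-251b21.1, also among the 10 lowest (-2.60), changed direction without the Muller glia-like members, as given below. All 40 krt18b UMIs and 179 of 280 gyg1b UMIs of control members lay in the 22 ganglion cell-like control cells. Without the Muller glia-like members, 231 genes were higher.

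Members of the library labelled Sws2-ablation were set against those of the control in the same way. Of 3182 genes, 396 (12.4%) were at least 2-fold higher and 1019 (32%) at least 2-fold lower, around a median log2 ratio of -0.41; TMM factors, which moved the ratios up by 0.34, gave 623 higher and 659 lower. The ganglion cell list had 5 of 11 tested genes higher and 2 lower (median log2 ratio 0.81) and summed to 5718 CPM in the Sws2-labelled and 2375 CPM in control members. The axon growth list had 11 of 21 tested genes higher and 2 lower (median log2 ratio 1.33). Atoh7 was at 585 CPM in the Sws2-labelled and 84.0 CPM in control members (log2 ratio 2.78), and sox11b was at 727 CPM in Sws2-labelled and 198 CPM in control members (log2 ratio 1.87), whereas its paralogue sox11a was at 291 CPM in Sws2-labelled and 1066 CPM in control members (log2 ratio -1.87). The GABA and glycine list had 0 of 6 tested genes higher and 6 lower (median log2 ratio -3.67), the synaptic vesicle list 0 of 12 tested genes higher and 6 lower (median log2 ratio -0.98) and the amacrine list 0 of 10 tested genes higher and 8 lower (median log2 ratio -3.08). All 3 tested genes of the brain list were at 0 in the library labelled Sws2-ablation, with a median log2 ratio of -3.09 against the floor of 3 UMIs. The 59 members were thus rich in ganglion cell and axon growth genes and poor in those of inhibitory and brain neurons, as their clusters were.

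The 10 lowest genes of that comparison were genes of clusters in which the library labelled Sws2-ablation had no cell, with slc6a9, si:ch211-195b11.3, gbx2, slc7a2, kcnip1b, msx3, tbx3a and anos1a found in cluster 1, and sst1.1 and otpa in cluster 3. In the control, sst1.1 was found in only 3 members and otpa in 14. Gbx2 had 0 UMIs in the Sws2-labelled and 385 in control members, and kcnip1b, a potassium channel-interacting protein, had 4 UMIs in Sws2-labelled and 2245 in control members. The 10 highest were FO704772.2, zgc:101731, wu:fi09b08, tcap, cart3, abracl, zgc:158463, CT027638.1, lin28a and sox12. Most abundant of them were zgc:158463, with 3300 UMIs in Sws2-labelled and 221 in control members, and CT027638.1, with 1885 and 172. Both were also lower in ganglion cell-like cells of Lws2-ablation than of Sws2-labelled (log2 ratios -2.35 and -2.92). Lin28a, an RNA-binding regulator of developmental timing, had 29 UMIs in Sws2-labelled and 2 in control members. Sox12, a relative of sox11b, had 57 UMIs in Sws2-labelled and 5 in control members. The appetite peptide gene cart3 had 26 UMIs in Sws2-labelled and 1 in control members. The unannotated FO704772.2 was among the 10 highest in both ablation libraries, with 309 UMIs in Lws2-ablation, 192 in the Sws2-labelled and 3 in control members; both comparisons share the control.

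**Figure D5:**
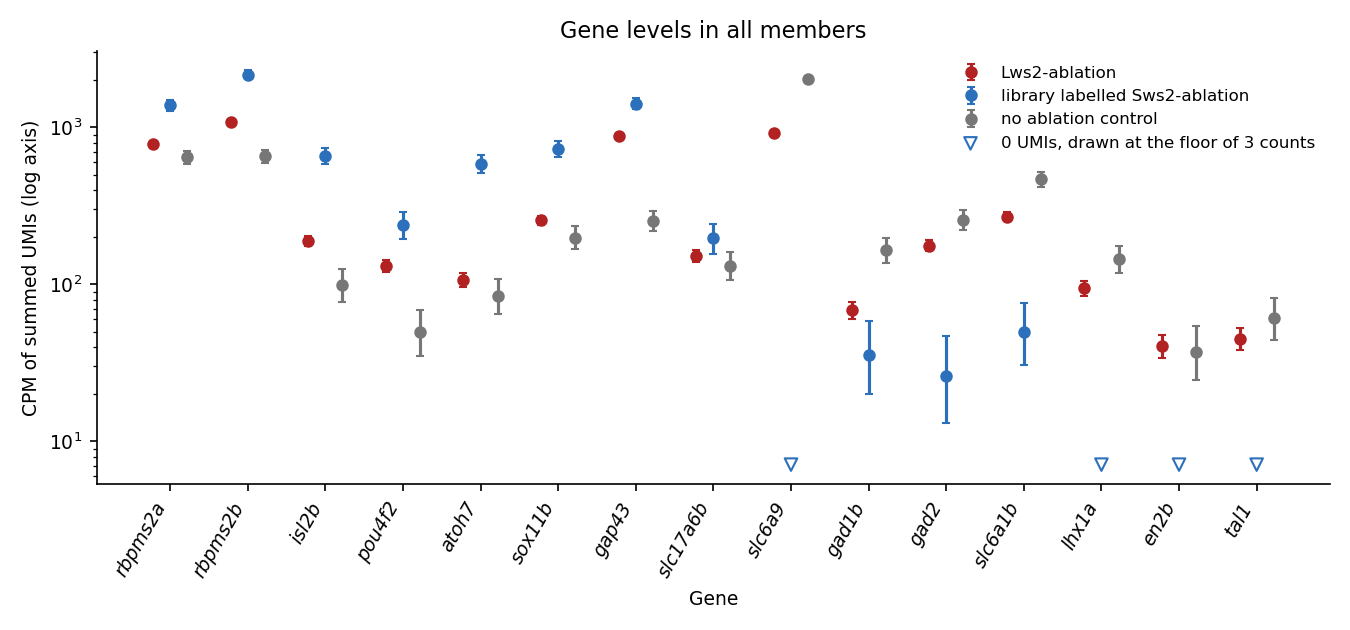
Level (CPM, log axis) of named genes summed over the members of each library, with exact Poisson 95% intervals; hollow triangles mark the floor of 3 UMIs where a gene had 0 UMIs. Ganglion cell genes such as isl2b (189 CPM in Lws2-ablation, 658 CPM in Sws2-labelled and 99.2 CPM in control) are highest in the Sws2-labelled members, and slc6a9 and lhx1a have no UMI there.

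Within the ganglion cell-like cells the control differed in its clusters and its depth. Its 22 cells lay mostly in cluster 7 (18), whereas 75 of 112 Lws2-ablation and 24 of 38 Sws2-labelled cells lay in cluster 4, so the values below compare different clusters. Against the control, 494 of 2397 genes were at least 2-fold higher (20.6%) and 335 lower (14%) in Lws2-ablation, and 323 of 1597 higher (20.2%) and 187 lower (11.7%) in the library labelled Sws2-ablation, around median log2 ratios of 0.09 in Lws2-ablation and 0.16 in Sws2-labelled cells. The 22 control cells were a shallow sum, in which 40 krt18b UMIs made 570 CPM. The 10 highest genes of each comparison had 0 UMIs there, so these counts hold genes near the floor. The axon growth list had 10 of 20 tested genes higher and 0 lower (median log2 ratio 1.00) in Lws2-ablation and 10 of 18 tested genes higher and 0 lower (median log2 ratio 1.16) in the library labelled Sws2-ablation. The synaptic vesicle list had 1 of 12 tested genes higher and 7 lower (median log2 ratio -1.28) in Lws2-ablation and 0 of 10 tested genes higher and 5 lower (median log2 ratio -0.98) in the library labelled Sws2-ablation. Between the ablation libraries, Lws2-ablation over the library labelled Sws2-ablation, 93 of 2432 genes were higher (3.82%) and 73 lower (3%), with 0 of 20 axon growth and 0 of 12 synaptic vesicle genes past 2-fold either way. The summed axon growth list was at 29155 CPM in Lws2-ablation and 28897 CPM in Sws2-labelled cells, and the ganglion cell list at 7531 CPM in Lws2-ablation and 7707 CPM in Sws2-labelled cells. Of the precursor list, 4 of 6 genes were at least 2-fold lower in Lws2-ablation. The 0 of 20 and 0 of 12 lie near the share over all genes, so this closeness is not particular to growth and synaptic genes. The cells were clustered together on their genes, so it is a description. Most of the tested precursor genes stood higher in the library labelled Sws2-ablation.

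Set against the AP-2 neurons of their own library (77 in Lws2-ablation, 6 in Sws2-labelled and 45 in control, with median depths of 6758 UMIs in Lws2-ablation, 4696 UMIs in Sws2-labelled and 4277 UMIs in control), members had 129 genes at least 2-fold higher (4.52%) and 71 lower (2.49%) in Lws2-ablation, 615 higher (28.6%) and 320 lower (14.9%) in the library labelled Sws2-ablation, and 292 higher (9.89%) and 189 lower (6.4%) in the control, around medians of -0.04 in Lws2-ablation, 0.28 in the library labelled Sws2-ablation and 0.11 in the control. Both groups were chosen by their UMIs, so the counts are descriptions, and the library labelled Sws2-ablation rests on 6 AP-2 cells. The ganglion cell list had 10 of 11 tested genes higher and 0 lower (median log2 ratio 2.50) in Lws2-ablation, 6 of 10 tested genes higher and 1 lower (median log2 ratio 2.19) in the library labelled Sws2-ablation and 8 of 10 tested genes higher and 0 lower (median log2 ratio 2.41) in the control, and with genes at 0 set to the floor the medians were 1.18 in the library labelled Sws2-ablation and 2.13 in the control. The GABA and glycine list had 0 of 6 tested genes higher and 5 lower (median log2 ratio -1.47) in Lws2-ablation, 0 of 4 tested genes higher and 4 lower (median log2 ratio -5.75) in the library labelled Sws2-ablation and 1 of 6 tested genes higher and 4 lower (median log2 ratio -1.17) in the control.

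Of the 1794 genes that could be ranked in all 3 libraries, the highest were zgc:158291, atoh7, the intermediate filament genes inab and prph, the Iroquois factor irx1a, the G protein subunit gng13b, the adhesion gene bcam, tmsb, rbpms2a and vav3b. Atoh7 was at 107 CPM in members and 9.13 CPM in AP-2 neurons of Lws2-ablation (log2 ratio 3.41), and had no UMI in AP-2 neurons of the other libraries, so that it was at least 5.47-fold higher in members of the library labelled Sws2-ablation and at least 6.53-fold higher in those of the control. Rbpms2a had log2 ratios of 2.50 in Lws2-ablation, 1.95 in the library labelled Sws2-ablation and 2.27 in the control. The lowest were tfap2e, the guidance cue slit2, rnd3a, the bHLH factor bhlhe22 and slc6a1b. Tfap2e, an AP-2 gene outside the rule, was at 23.7 CPM in members and 721 CPM in AP-2 neurons of Lws2-ablation, and at 1.38 CPM in members and 339 CPM in AP-2 neurons of the control. In each library ganglion cell genes thus stood higher in members and GABA genes in AP-2 neurons.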

How the data were processed

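Single cells of larval zebrafish retina were captured as 3 droplet libraries, 1 per condition. The authors deposited filtered matrices of raw UMI counts per gene and cell, not normalised, for 27773 genes, with EGFP and RFP among them. The processing notes name Cell Ranger 2.1.1 and GRCz11, whereas the matrix headers name Cell Ranger 3.0.2. Cells were kept with at least 200 genes, at most 4500 genes and 35% mitochondrial UMIs in Lws2-ablation, 4000 genes and 30% in the library labelled Sws2-ablation, and 3500 genes and 20% in the control. That left totals of 74215043 UMIs in Lws2-ablation, 51943376 in the library labelled Sws2-ablation and 41397211 in the control.

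Members and gene lists (15 marker and 11 function lists, 352 of 366 symbols in the files) were chosen with earlier results of these data known. Members were clustered together (scanpy 1.11.5, 2000 variable genes, 20 principal components, 15 neighbours, Leiden at resolution 1). A cluster marker was found in at least 25% of its cells at 2-fold or more over the other clusters with 10 CPM added. A name asked for 3 markers of a list, plus an rbpms2 gene for ganglion cells or pax10, ptf1a or barhl2 for amacrine cells, and no other list leading among the 10 top genes. These last conditions were settled after clusters had been seen. UMIs were summed per library and divided by the total (CPM), and log2 ratios had 1 CPM added. Genes under 50 CPM or 20 UMIs in the higher group were left out. Each condition has 1 library, so no p-value was computed; Poisson, binomial and ratio intervals at 95% (scipy 1.17.1) and the floor of 3 counts cover counting error only. Only the ratios and their intervals were tested on simulated data, Poisson counts drawn from the summed control profile. The choice of members, the clustering and the naming were not tested in this way. Doublets were not removed in the main values; Scrublet scores served as an alternative, with 57 Lws2-ablation, 4 Sws2-labelled and 11 control members among the cells with the highest scores. The other alternatives changed the member thresholds, the cell filters, clustering, the CPM added, the gene filter and scaling (TMM, edgeR 4.0.16), or thinned each cell to 1000 UMIs. Genes were named by rule: the genes of the rule for members, list genes with at least 20 UMIs, the 10 highest and 10 lowest ratios over the control, the 10 highest and 5 lowest against AP-2 neurons, and the 5 leading genes of each cluster. Other genes named for clusters were chosen after their values were seen.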

Additional observations from a re-analysis of the deposited data

Results flagged for a closer look

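In 3 measures the ablation libraries lay on opposite sides of the control, which they share. None of these differences was tested. The log2 ratio of the member share of kept cells over the control was 1.64 in Lws2-ablation and -1.47 in Sws2-labelled cells. The summed photoreceptor list in members had a log2 ratio of 1.06 in Lws2-ablation and -1.03 in Sws2-labelled cells. It rested on few UMIs, 485 in Lws2-ablation, 14 in Sws2-labelled cells and 49 in control members, and the same list was at 628 CPM in Lws2-ablation, 242 CPM in Sws2-labelled cells and 496 CPM in control glula cells. The summed neurogenic precursor list in members had a log2 ratio of -0.51 in Lws2-ablation and 0.31 in Sws2-labelled cells. It was at 1355 CPM in Lws2-ablation, 2395 CPM in Sws2-labelled cells and 1930 CPM in control members. Most of the control sum was sox11a (level above), a marker of cluster 1 and not of the precursor-like cluster 5. Cluster 5 held 9.16% of Lws2-ablation but 0.585% of control members. The sum thus does not follow the share of precursor-like cells.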

How the results depend on the processing

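No paired analysis was possible because each condition has 1 library. The depth of the members and the 59 cells of the library labelled Sws2-ablation limit all of its values, and with 1 library per condition neither larvae nor sorts can be told apart from treatment. The member share in Lws2-ablation was 5.38% at 25 UMIs per 10000, 6.999% at 3 UMIs or more, 4.97% at 10 UMIs or more, 7.09% with 1 UMI of the excluded genes allowed and 9.22% among cells of 2000 to 8000 UMIs. At 25 per 10000 it was 0.535% in the library labelled Sws2-ablation and 1.77% in the control, where 10 UMIs or more gave 1.59%. Ganglion cell-like and precursor-like clusters together held 29.5% of Lws2-ablation members at resolution 1.5, and 30.9% of Lws2-ablation and 23.7% of Sws2-labelled members with genes scaled within each library. The six6b-low share at 25 per 10000 was 34.8% in Lws2-ablation and 29.7% in the control.

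For Lws2-ablation over the control, thinning gave 249 genes higher and 139 lower, no filter 2259 higher and 2098 lower, TMM 275 higher and 185 lower, and leaving out the Muller glia-like members, chosen after the data were seen, 231 higher. The summed ganglion cell list was then at 0.12 with thinning, 0.68 with TMM and 0.38 without glia, and the GABA list at -0.68 with thinning, -0.75 with TMM, -1.13 without doublets and -1.25 without glia. For the library labelled Sws2-ablation over the control, thinning gave 153 higher and 468 lower, no filter 2371 higher and 6131 lower, and TMM 623 higher and 659 lower. The ganglion cell list was at 1.47 with thinning and 1.60 with TMM, and the GABA list at -3.21 with thinning and -5.42 without glia.

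Against AP-2 neurons in Lws2-ablation, thinning gave 392 higher, no filter 2595 higher and 1516 lower, removing doublets 219 higher and leaving out glia 109 lower. The ganglion cell list was at 1.61 with thinning and 2.84 without doublets, and the GABA list at -0.75 with thinning and -0.57 without doublets. In the library labelled Sws2-ablation thinning gave 128 higher and 40 lower and no filter 7443 higher and 2532 lower, and the GABA list was at -4.29 with thinning and -5.86 without glia. In the control thinning gave 50 lower, no filter 4803 higher and 2365 lower, and leaving out glia 447 higher. The ganglion cell list was at 1.36 with thinning, and the GABA list at -0.36 with thinning and -0.21 without glia.

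A few genes changed direction. Without the Muller glia-like members, dla (0.81), olig2 (1.75), si:ch211-251b21.1 (3.62) and slc1a2b (0.15) were higher in Lws2-ablation than in the control, apoeb (0.069) and dla (0.84) were higher in the library labelled Sws2-ablation than in the control, and dla (-0.14) and olig2 (-2.26) were lower in control members than in AP-2 neurons. Against AP-2 neurons, neurod6a was at -0.12 with thinning and sst1.1 at -1.41 without doublets in Lws2-ablation, kif5aa at 0.024 and stmn4l at -0.0049 with thinning in the library labelled Sws2-ablation, and dpysl3 at -0.34 and tuba1a at -0.037 with thinning in the control. The cause of these changes was not tested.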
